A study of Mus musculus with 8 samples.

Results

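The tripartite motif genes were followed here in adult mouse testis. They were taken as every gene of the deposited table whose identifier maps to a mouse symbol that starts with Trim and a digit, which gave 57 of 24988 genes. Bulk RNA was sequenced in 8 libraries from adult testis, 4 of genotype Kpna2-/- (labelled Kpna2 knockout) and 4 of genotype WT (labelled wild-type), with no treatment named. Kpna2 encodes an importin alpha, an adaptor for proteins that enter the nucleus, and the series asks what its loss does to expression in the testis of male mice. The labels name no strain, no exact age, no deleted exon and no animal behind a library, so the libraries of a group may share a source and the tests speak for the scatter among them alone. Another 12 Trim symbols of the annotation were not analysed here.

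TRIM proteins carry a RING finger, B-box zinc fingers and a coiled coil, followed by a carboxy-terminal domain that differs between classes and chooses the target. Most act as ubiquitin ligases: the RING finger brings in a ubiquitin-conjugating enzyme, and the carboxy-terminal domain, often of the SPRY kind, holds the protein to be marked. Some are induced by interferon and restrict viruses, the class with PHD and bromodomain silences chromatin, and several were described in the testis, among them Trim36 of the acrosome and Trim17.

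Values are what the authors call CPM, a scaled read signal per gene, and are given as mean ± SD with n = 4 libraries a group. The columns sum to 990244 to 1025489, so the scaling was not to library size alone. The libraries held 31133443 to 37797812 reads. A log2 fold change is the difference of log2(CPM + 0.5), knockout label minus wild-type label, which understates the change of low genes. A gene is said to rise or fall where limma, fitted over the 22027 genes whose average reached 0.5 CPM, gave an adjusted p under 0.05.

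Kpna2 itself was not lower under the knockout label. It stood at 13.97, 15.1, 14.04 and 12.4 CPM in the wild-type libraries and at 15.3, 20.2, 19.4 and 21.7 CPM in the libraries labelled knockout, each above all of the wild type (exact two-sided permutation test, p = 0.029, the smallest that 70 assignments allow). The target thus goes against its label, and a total per gene does not show whether a deleted exon is missing. Each direction given in the text refers to the label only. Markers of the labelled tissue were abundant: Prm2, a protamine of sperm chromatin, stood at 6072 and 6285 CPM in the wild-type and knockout means, and Ddx4, a germ cell helicase, at 513 and 501 CPM.

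The promoters of 4 Trim genes are shown because these genes passed the test and had a promoter in the RefSeq table. Trim16, the other called gene, is not shown. Each is the stretch of 250 bases before a start annotated by RefSeq (GRCm38.p6), 5′ to 3′. Capitals mark matches, on either strand, to the NRF1 element (GCGCA, any base, GCGC), the cAMP response element (TGACGTCA) or the interferon-stimulated response element (TTTC, any 2 bases, TTTC).
Trim37 (chr11:87126825-87127074, plus strand): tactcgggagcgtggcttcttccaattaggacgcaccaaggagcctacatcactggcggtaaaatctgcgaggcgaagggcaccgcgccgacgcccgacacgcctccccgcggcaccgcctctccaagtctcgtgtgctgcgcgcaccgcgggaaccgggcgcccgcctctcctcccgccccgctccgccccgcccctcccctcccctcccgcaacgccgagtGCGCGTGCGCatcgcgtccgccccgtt
Trim39 (chr17:36271434-36271683, minus strand): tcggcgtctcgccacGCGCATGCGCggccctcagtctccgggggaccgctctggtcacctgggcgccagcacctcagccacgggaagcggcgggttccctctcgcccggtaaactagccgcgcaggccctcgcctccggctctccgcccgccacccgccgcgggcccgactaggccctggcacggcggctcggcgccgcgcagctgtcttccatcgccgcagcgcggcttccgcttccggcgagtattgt
Trim23 (chr13:104178589-104178838, plus strand): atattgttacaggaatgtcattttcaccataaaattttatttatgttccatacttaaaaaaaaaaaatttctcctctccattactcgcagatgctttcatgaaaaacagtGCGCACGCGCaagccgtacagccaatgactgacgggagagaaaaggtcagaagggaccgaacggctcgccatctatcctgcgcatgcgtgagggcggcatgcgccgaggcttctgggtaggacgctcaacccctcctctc
Trim26 (chr17:36836896-36837145, plus strand): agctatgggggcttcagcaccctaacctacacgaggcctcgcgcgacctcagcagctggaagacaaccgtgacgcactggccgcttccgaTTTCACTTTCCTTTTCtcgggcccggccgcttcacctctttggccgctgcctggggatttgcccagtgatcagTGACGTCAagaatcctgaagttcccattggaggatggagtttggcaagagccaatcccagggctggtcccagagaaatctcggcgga

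The promoters shown for Trim37, Trim39 and Trim23 held the NRF1 letters, and that of Trim26 held the cAMP response element and a pair of overlapping matches to the interferon element. For Trim39, 1 of 3 annotated starts is shown. The promoter of another of its starts (chr17:36272005-36272254) held none of these elements. The motifs were chosen after these promoters had been read, so the matches are a description. RefSeq promoters were found for 42 of the 57 Trim genes, 55 promoters in all. The NRF1 letters were in 6 of the 55 (10.9%), against 3.74% of all 32851 promoters of that length. These 6 come from 5 genes, since Trim39 has a pair of promoters shifted by 2 bases that hold the same site. The interferon element was in 5 (9.09%) against 2.98%, the cAMP response element in 2 (3.64%) against 1.55%, and the GC box GGGCGG in 23 promoters of 21 genes (41.8%) against 32.7%.

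The other holders of the interferon element were Trim5, Trim12c, Trim30a and Trim30d, antiviral members that lie together on chromosome 7. They are shown as 30 bases around the match, to let the likeness of these copies be seen.
Trim5 (chr7:104288136-104288165, minus strand): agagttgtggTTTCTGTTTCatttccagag
Trim12c (chr7:104353359-104353388, minus strand): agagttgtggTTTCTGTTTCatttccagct
Trim30a (chr7:104465210-104465239, minus strand): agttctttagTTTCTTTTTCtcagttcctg
Trim30d (chr7:104507871-104507900, minus strand): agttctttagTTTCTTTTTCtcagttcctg

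The windows of Trim30a and Trim30d carry the same letters throughout. The sources used here do not say how reads that match several copies were counted, so the values of the Trim5, Trim12, Trim30, Trim34 and Trim43 copies are uncertain.

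The wild-type means of the 57 genes ran from 0.217 CPM for Trim30b to 675 CPM for Trim37. A mean of 100 CPM or more was seen for 9, 10 to 100 CPM for 18, 1 to 10 CPM for 18 and under 1 CPM for 12, and the 9 highest took 77.6% of the summed level. Levels of different genes were compared as CPM per kilobase of exons of the gene model. On this scale Trim36, which acts in the acrosome reaction, was highest in the wild type at 136 (range over 4 libraries 126 to 152). Trim80 followed at 114 (105 to 135), overlapping Trim36. Trim28, the corepressor that KRAB zinc finger proteins bring to chromatin, stood at 96.04 CPM per kb (93.4 to 98.4) and Trim37 at 93.5 (76.8 to 103), so these neighbours in the order did not differ beyond their spread. Trim17 stood at 76.0 CPM per kb (70.9 to 83.7) and Trim69, also known from testis, at 70.7 (66.97 to 74.4), again with overlapping ranges. At the other end Trim30b had 6 to 14 reads in a library and Trim5 had 7 to 16. These genes, Trim29 and Trim55 were too low to be tested, which left 53 tested Trim genes.

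**Figure D1:**
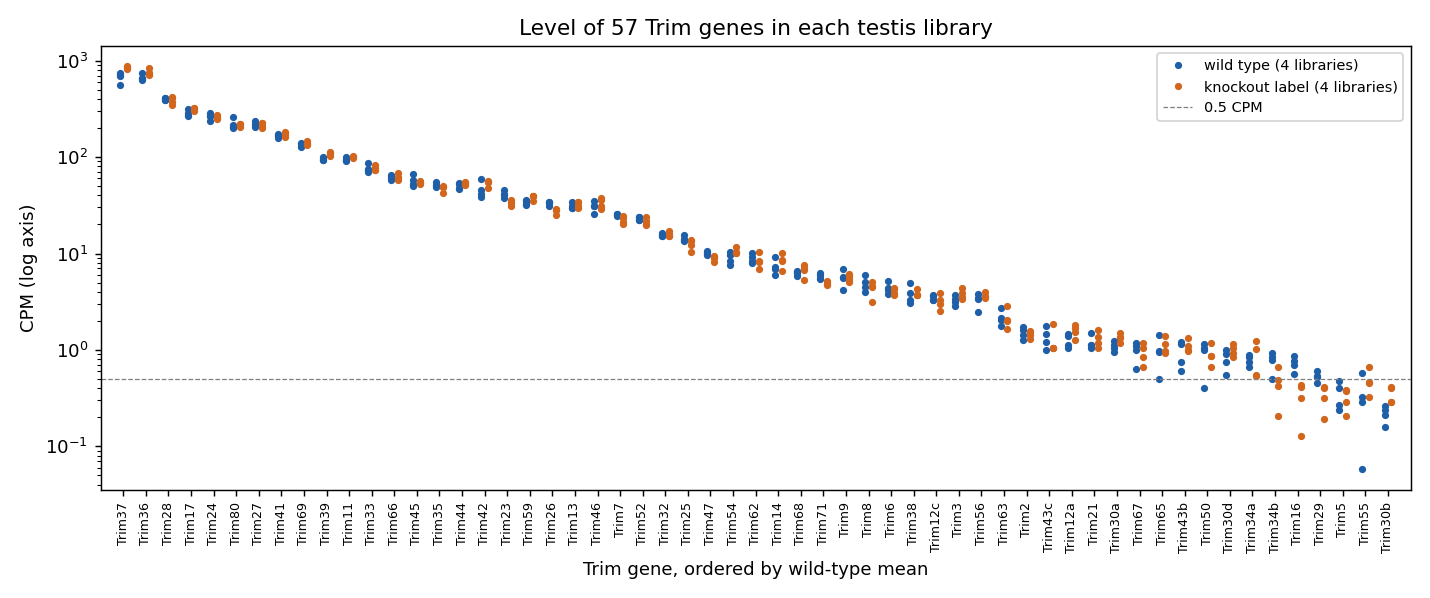
Level of each of the 57 Trim genes in CPM (log axis), with 1 point for each of the 4 wild-type and 4 knockout-labelled libraries and genes ordered by their wild-type mean. The points of the groups lie side by side for most genes, and the dashed line marks 0.5 CPM, under which the mean over all libraries of Trim29, Trim5, Trim55 and Trim30b lies.

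Few Trim genes differed between the groups, and 4 of the 5 that did moved by 1.26-fold or less. Of the 53 tested, 2 rose (Trim37 and Trim39) and 3 fell (Trim23, Trim26 and Trim16), 9.43% in all, against 16.9% of all tested genes, 8.62% higher and 8.32% lower. Trim16 reached the 0.5 CPM filter only through its wild-type libraries. In edgeR 2 rose and 3 fell, where 16.7% of all genes were called, 8.76% higher and 7.97% lower. In DESeq2 3 rose and 3 fell, where 18% of all genes were called, 9.59% higher and 8.39% lower. An unadjusted limma p under 0.05 was found for 12 of the 53, against 30.2% of all genes. The values of the groups did not overlap for 7 of the 53, against 20.9% of all genes: 2 were higher, against 10.1%, and 5 lower, against 10.7%. The median log2 fold change of the 53 was 0.02, against -0.01 over all genes, with 30 above and 23 below 0, and the median size was 0.11 against 0.13. No Trim gene changed by 1 log2 unit in limma with 0.5 CPM added. The low Trim16 passed it in edgeR (-1.14), in DESeq2 (-1.15) and in limma with 0.1 CPM added (-1.02). For all 27 Trim genes of at least 10 CPM in the wild type, of which 4 were called, the 95% interval of the change lay within 1.5-fold in either direction.

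**Figure D2:**
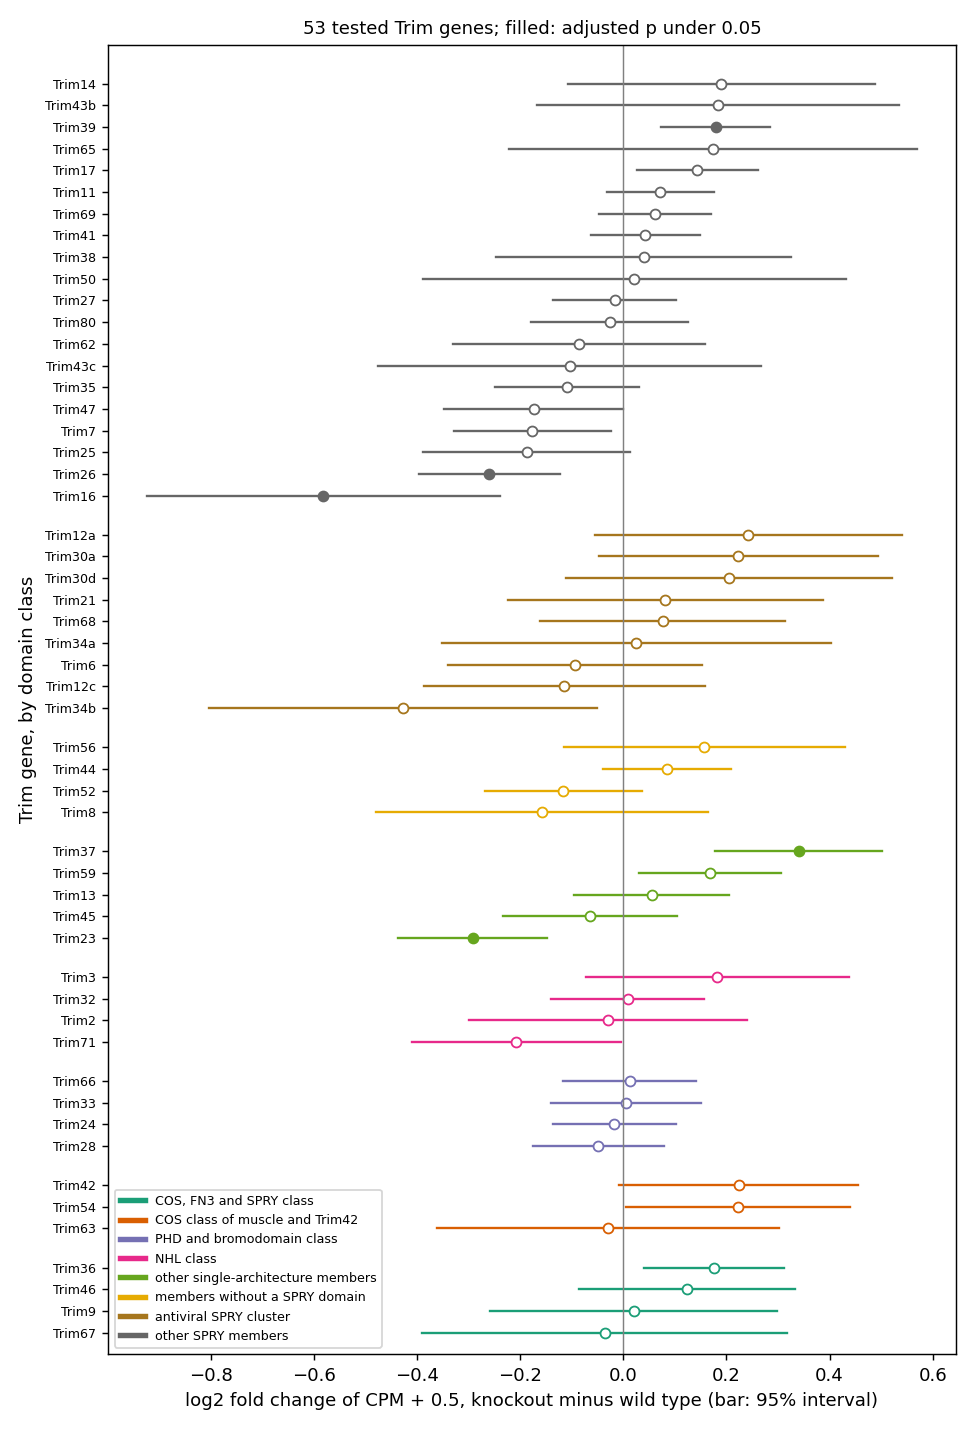
Log2 fold change of CPM + 0.5 (knockout label minus wild type) of the 53 tested Trim genes with its 95% interval from limma, coloured by the domain class or mixed group it was listed in. Filled points are the 5 genes past the threshold, and genes near or under 1 CPM such as Trim16, Trim34b and Trim50 have wide intervals.

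Trim37, a ligase with a MATH domain that acts at peroxisomes and restrains centriole assembly, rose the most of the 53. It lies at chr11:87127077-87220683, plus strand, ENSMUSG00000018548, on GRCm38. It stood at 712, 554, 744 and 689 CPM in the wild-type libraries and at 862, 811, 847 and 877 CPM under the knockout label. The groups did not overlap, and wild-type replicate 2 was the lowest of the 8. The mean rose from 675 ± 83.4 to 849 ± 28.3 CPM, 1.26-fold (log2 fold change 0.34, SE 0.08, limma adjusted p = 0.0069). Without wild-type replicate 2 the log2 fold change was 0.25 and the limma adjusted p 0.0094.

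Trim23 joins a ligase to a GTPase domain of the ARF kind and fell. It lies at chr13:104178797-104203372, plus strand, ENSMUSG00000021712. It stood at 38.01, 40.4, 45.5 and 41.04 CPM in the wild type and at 36.1, 33.8, 31.02 and 33.2 CPM under the knockout label, without overlap. The mean went from 41.2 ± 3.11 to 33.6 ± 2.11 CPM (log2 fold change -0.29, SE 0.07, limma adjusted p = 0.0085). In bulk tissue, fewer cells of a type and less RNA per cell cannot be told apart, for this gene and for those that follow.

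Trim13, Trim23, Trim37, Trim45 and Trim59 were grouped here as members outside the other classes, so they form no domain class. Trim37 and Trim23 were the only calls among these 5, which is 40%, against 16.9% of all genes. Trim59, a membrane-anchored member, had 32.7, 35.3, 35.8 and 31.6 CPM in the wild type and 39.1, 39.4, 34.7 and 39.1 CPM under the knockout label. Replicate 3 of the latter alone lay within the wild-type range (log2 fold change 0.17, limma adjusted p = 0.090). Without that library the log2 fold change was 0.21 and the limma adjusted p 0.043.

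Trim39 and Trim26, SPRY ligases that lie 565 kb apart in the histocompatibility region of chromosome 17, moved in opposite directions. Trim39, a ligase with a part in apoptosis and the cell cycle (chr17:36258873-36272247, minus strand, ENSMUSG00000045409), stood at 93.2, 93.7, 100.3 and 98.2 CPM in the wild type and at 108, 104, 114 and 111 CPM under the knockout label. The groups did not overlap. The mean rose from 96.4 ± 3.45 to 109 ± 4.32 CPM, 1.13-fold (log2 fold change 0.18, SE 0.05, limma adjusted p = 0.022). Its limma adjusted p was 0.072, 0.074, 0.065 and 0.056 without wild-type replicate 1, wild-type replicate 2, knockout replicate 3 and knockout replicate 4, and 0.077 without a variance trend.

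Trim26, a ligase of antiviral signalling that acts on IRF3 (chr17:36837134-36859398, plus strand, ENSMUSG00000024457), stood at 34.0, 31.2, 34.1 and 33.3 CPM in the wild type and at 29.2, 28.2, 28.2 and 25.0 CPM under the knockout label. All values of the latter were below all of the former, with knockout replicate 4 lowest. The mean fell 1.20-fold, from 33.2 ± 1.35 to 27.6 ± 1.81 CPM (log2 fold change -0.26, SE 0.06, limma adjusted p = 0.012). Per kilobase of exons, the ratio of Trim39 to Trim26 was 2.61, 2.85, 2.79 and 2.81 in the wild-type libraries and 3.52, 3.50, 3.84 and 4.22 under the knockout label. A ratio within a library does not depend on its scaling, but this one was formed after the values had been seen. The groups overlapped for neither gene and the genes moved in opposite directions, so the ratio had to separate the groups. It restates the values of the genes and is no further test.

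**Figure D3:**
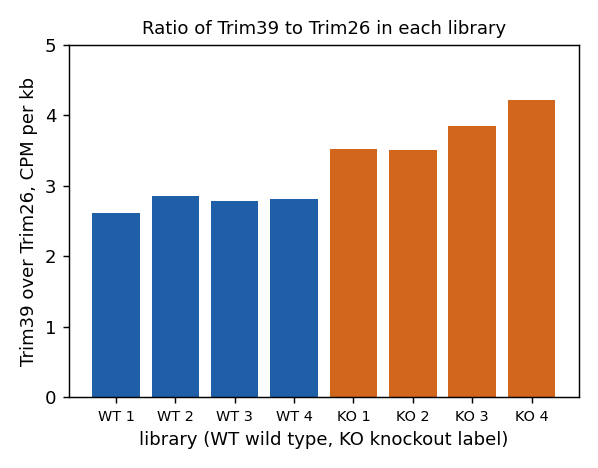
Ratio of Trim39 to Trim26 in CPM per kb of exons, 1 bar for each library. The 4 wild-type bars lie between 2.61 and 2.85 and the 4 knockout-labelled bars between 3.50 and 4.22.

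Trim16, a SPRY member without a RING finger that takes part in the response to damaged lysosomes, fell at a very low level. It lies at chr11:62820231-62850808, plus strand, ENSMUSG00000047821, and overlaps Fbxw10 on the same strand, which stood at 276 and 285 CPM. Trim16 had 19, 30, 23 and 29 reads in the wild-type libraries and 14, 11, 4 and 15 under the knockout label, which is 0.564, 0.867, 0.694 and 0.760 against 0.409, 0.315, 0.129 and 0.437 CPM. The groups did not overlap, and knockout replicate 3 was the lowest. The mean went from 0.721 ± 0.127 to 0.322 ± 0.139 CPM, 2.24-fold lower (log2 fold change -0.58, SE 0.16, limma adjusted p = 0.023). The knockout mean lies under the 0.5 CPM of the filter, which the gene passed only through its wild-type libraries. Its call is therefore a description. With no filter the limma adjusted p was 0.018. The log2 fold change was -1.02 with a pseudocount of 0.1 CPM, -0.23 with 2 CPM and -1.14 in edgeR. The limma adjusted p was 0.068, 0.053 and 0.064 without wild-type replicate 2, wild-type replicate 4 and knockout replicate 3.

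**Figure D4:**
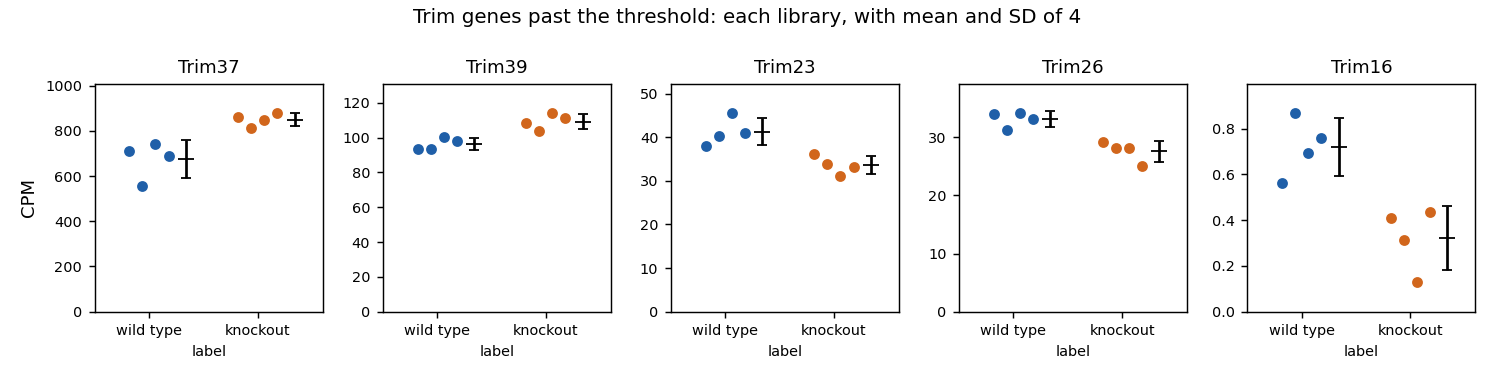
CPM of the 5 called Trim genes in each library (points) with the mean and SD of 4 libraries (black), each axis starting at 0. In each panel the 4 wild-type points and the 4 knockout-labelled points do not overlap.

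Of 20 tested genes among the other SPRY members, 1 rose and 2 fell as described, 15% against 16.9% of all genes. The other 17 did not pass, and 10 of the 20 lay above and 10 below 0. Trim17, a ligase first found in testis, stood at 273, 285, 265 and 313 CPM in the wild type and at 324, 304, 320.0 and 305 CPM under the knockout label. Wild-type replicate 4 alone reached into the knockout range (log2 fold change 0.14, limma adjusted p = 0.089). Without it the log2 fold change was 0.19 and the limma adjusted p 0.021. Trim7, which binds the glycogen primer glycogenin, had 25.7, 24.3, 25.9 and 25.0 CPM in the wild type and 23.2, 21.5, 24.6 and 20.1 CPM under the knockout label. Each group had 1 value inside the range of the other (log2 fold change -0.18, limma adjusted p = 0.11).

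Of the 4 genes of the COS, FN3 and SPRY class, whose proteins bind microtubules, none was called. Trim36 stood at 643, 668, 623 and 748 CPM in the wild type and at 828, 711, 743 and 745 CPM under the knockout label. Wild-type replicate 4 was the only one of its group inside the knockout range. The log2 fold change was 0.18 (SE 0.06, limma adjusted p = 0.073). The limma adjusted p was 0.020 without wild-type replicate 4, 0.046 without knockout replicate 2 and 0.049 with library weights, and DESeq2 gave 0.043.

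Trim42 was grouped here with the muscle RING finger genes Trim54, Trim55 and Trim63, a grouping of convenience. Trim42 had the highest level of the group, where none of 3 tested was called. It had 41.2, 45.8, 38.2 and 59.3 CPM in the wild type and 55.1, 47.3, 54.6 and 55.96 CPM under the knockout label (log2 fold change 0.22, limma adjusted p = 0.18). Wild-type replicate 4 was the highest of the 8, and the other 3 of its group lay below the knockout range. Without replicate 4 the log2 fold change was 0.35 and the limma adjusted p 0.0092. Leaving out wild-type replicate 4 moved the Trim genes that rose from 2 to 5, by Trim36, Trim17 and Trim42, and those that fell from 3 to 2. Relative to the wild-type mean, the mean log2 level of Leydig cell markers in that library was 0.16, against -0.08 to -0.02 in the other 3 of its group, and that of endothelial markers 0.12, against -0.15 to 0.02. Pachytene markers were at -0.05, against -0.01 to 0.07, and leukocyte markers at -0.08, against -0.05 to 0.08. For spermatid, spermatogonial, Sertoli cell, peritubular myoid and skeletal muscle markers the library lay between the others of its group. The part of these differences in the calls was not tested. Trim54, a muscle RING finger gene, stood at 10.3, 9.704, 7.58 and 8.41 CPM in the wild type and at 10.5, 10.01, 10.01 and 11.6 CPM under the knockout label, with overlap (log2 fold change 0.22, limma adjusted p = 0.15). Of 10 skeletal muscle markers 6 had a value, and none of the 4 tested was called. Actn3 was the highest at 12.9 ± 1.55 and 11.2 ± 1.195 CPM, and the others were low and went both ways, such as Ckm at 0.441 ± 0.158 and 0.701 ± 0.225 CPM and Myh4 at 0.501 ± 0.0667 and 0.134 ± 0.0280 CPM.

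**Figure D5:**
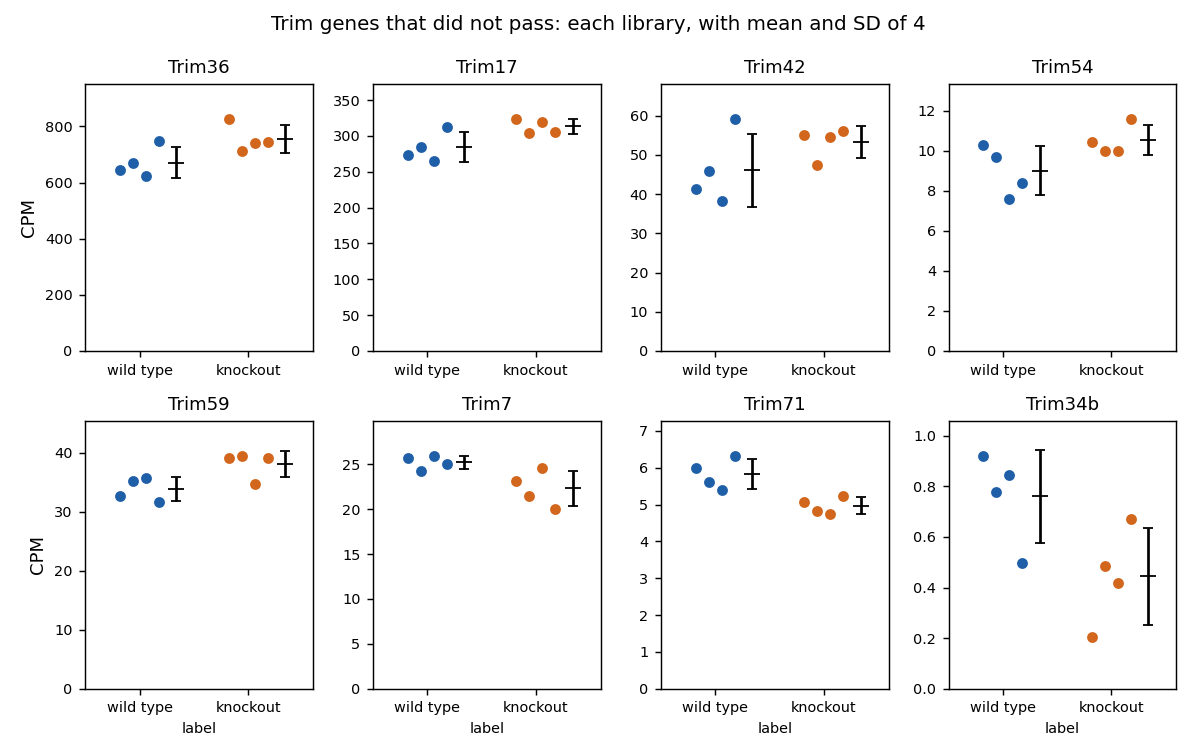
CPM in each library (points, replicates 1 to 4 from left to right), with the mean and SD of 4, of 8 Trim genes that did not pass, each axis starting at 0. In Trim36, Trim17 and Trim42 the highest wild-type point is replicate 4, and in Trim71 the groups do not overlap.

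The class with PHD and bromodomain (Trim24, Trim28, Trim33 and Trim66) had no call, and its log2 fold changes lay between -0.05 and 0.01. Trim28 had 409, 406, 388 and 394 CPM in the wild type and 421, 345, 376 and 408 CPM under the knockout label, where replicate 2 was lowest and replicate 1 highest of the 8. The log2 fold change was -0.05, with a 95% interval of -0.18 to 0.08 (limma adjusted p = 0.63).

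Of the 4 genes with NHL repeats none was called. Trim71, a ligase of pluripotent and early germ cells, stood at 5.99, 5.603, 5.403 and 6.32 CPM in the wild type and at 5.08, 4.83, 4.75 and 5.24 CPM under the knockout label. The groups did not overlap, but the gene did not pass (log2 fold change -0.21, limma adjusted p = 0.15). Trim32, a ligase known from muscle, stood at 15.7 ± 0.463 and 15.8 ± 0.917 CPM, with a 95% interval of the log2 fold change of -0.14 to 0.16. Among 4 tested members that lack SPRY and the other named domains none was called, and the highest, Trim44, stood at 50.1 ± 3.301 and 53.2 ± 1.79 CPM (limma adjusted p = 0.35).

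The SPRY genes listed as antiviral on chromosome 7 were low, and none of the 9 tested was called. Trim21 (chr7:102557921-102565486) and Trim68 (chr7:102677582-102687327) lie outside the cluster, which runs from Trim6 to Trim30d (chr7:104218793-104507849). With 2 untested members all the listed genes, Trim21 and Trim68 among them, summed to 18.5 to 22.3 CPM in the wild type and 19.3 to 23.3 CPM under the knockout label. The highest of the list, Trim68, stood at 6.26 ± 0.324 and 6.67 ± 0.983 CPM. Trim34b had 31, 27, 28 and 19 reads in the wild type and 7, 17, 13 and 23 under the knockout label, with overlap (log2 fold change -0.43, limma adjusted p = 0.12). Of 11 tested Trim genes listed as induced by interferon, Trim26 fell and 10 did not pass, and 8 of the 11 lay above 0. The share called was 9.09%, against 16.9% of all genes.

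Genes that TRIM proteins resemble or work with were called in shares of 14.3% to 20%, near the 16.9% of all genes. Of 7 tested genes of TRIM architecture under other names 1 rose: Mid1, which steadies microtubules, had 0.475, 0.607, 0.694 and 0.996 CPM in the wild type and 1.55, 1.63, 1.26 and 1.19 CPM under the knockout label, without overlap (log2 fold change 0.69, SE 0.16, limma adjusted p = 0.0074). Bspry, the highest of them, stood at 369 ± 8.08 and 388 ± 21.01 CPM (limma adjusted p = 0.37). Of 12 tested ubiquitin-conjugating enzymes, 2 rose and none fell. Ube2e2 rose from 8.34 ± 0.243 to 11.4 ± 0.417 CPM (limma adjusted p = 0.0016) and Ube2d2a from 52.1 ± 1.18 to 61.99 ± 3.59 CPM (limma adjusted p = 0.0063). Ube2d2b, the highest, stood at 320.1 ± 11.9 and 303 ± 27.3 CPM.

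Among 15 genes of the Trim28 silencing machinery, 2 rose and 1 fell, while Trim28 itself did not pass. Hdac1, a histone deacetylase, had 27.4, 24.9, 27.8 and 24.2 CPM in the wild type and 41.2, 41.1, 38.5 and 46.6 CPM under the knockout label. It was 1.61-fold higher, without overlap (log2 fold change 0.67, SE 0.07, limma adjusted p = 2.0e-05). Zfp57, a KRAB zinc finger gene of imprinted regions, rose from 24.1 ± 2.61 to 29.6 ± 1.92 CPM (limma adjusted p = 0.022). Its limma adjusted p was 0.054, 0.050 and 0.057, no longer under the threshold, without wild-type replicate 4, knockout replicate 1 and knockout replicate 4. Of 19 alternative settings, 15 kept the call of Zfp57. Dnmt3l, a cofactor of DNA methylation, fell from 10.4 ± 1.11 to 7.997 ± 1.11 CPM (limma adjusted p = 0.038). That p was 0.12, 0.074 and 0.091 without wild-type replicates 1, 2 and 3, and 0.097 and 0.052 without knockout replicates 3 and 4. The call of Dnmt3l was kept in 12 of 19 alternative settings. Chd4, a remodeller and the highest of the list, stood at 301 ± 11.7 and 326 ± 19.2 CPM.

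In RNA and DNA sensing, the signalling in which antiviral TRIM ligases act, 3 of 17 tested genes fell and none rose. Stat2, a transcription factor of the interferon response, had 16.7, 14.8, 15.8 and 14.99 CPM in the wild type and 7.21, 6.26, 7.59 and 6.17 CPM under the knockout label, 2.28-fold lower without overlap (log2 fold change -1.14, limma adjusted p = 1.2e-06). Mx1, an antiviral GTPase, fell from 3.55 ± 0.494 to 1.77 ± 0.453 CPM (limma adjusted p = 0.0017). Traf3, an adaptor of these pathways, fell from 8.35 ± 0.952 to 6.53 ± 0.531 CPM (limma adjusted p = 0.038). That p was 0.096, 0.12 and 0.054 without wild-type replicates 1, 2 and 4, and 0.058, 0.093 and 0.084 without knockout replicates 2, 3 and 4. The call of Traf3 was kept in 12 of 19 alternative settings. Irf3, the highest, stood at 52.5 ± 2.901 and 51.3 ± 3.12 CPM. The median log2 fold change of the 17 was -0.09, against -0.01 over all genes, and that of the 11 interferon-induced Trim genes was 0.08.

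Markers of somatic testis cells also differed between the groups, and their part in the Trim values was not tested. Their counts are to be read against those of all 22027 tested genes. Of these 16.9% were called, 8.62% higher and 8.32% lower, and 11538 lay below 0. All 10 peritubular myoid markers lay below 0 and 5 fell, with a summed level of 397 to 469 CPM in the wild type and 332 to 355 CPM under the knockout label. All 10 Sertoli cell markers lay below 0 as well and 3 fell. Their mean log2 level, relative to the wild-type mean, was -0.08 to 0.06 in the wild type and -0.37 to -0.16 under the knockout label, without overlap. Their summed level (1200.0 to 1295 against 1051 to 1224 CPM) is mostly that of Clu, at 842 ± 36.8 and 787 ± 56.7 CPM. Of 10 Leydig cell markers 4 fell, 1 rose and 5 were not called (1280.0 to 1522 against 910.3 to 1324 CPM). The one that rose, Hsd3b1, went from 22.4 ± 1.84 to 83.95 ± 14.2 CPM without overlap (limma adjusted p = 2.6e-08). Of 10 endothelial markers 2 fell (47.9 to 53.7 against 39.3 to 48.4 CPM). Of 10 spermatid markers none was called (23460.0 to 24870.0 against 20880.0 to 26960.0 CPM), of 10 pachytene markers 1 fell (7879 to 7957 against 7579 to 8289 CPM) and of 10 spermatogonial markers 2 fell (611 to 721 against 614 to 674 CPM). Of 9 tested leukocyte markers none was called (67.03 to 76.5 against 61.7 to 79.2 CPM).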

How the data were processed

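RNA of adult testis was extracted with TRIzol, treated with DNase and made into TruSeq libraries, per the labels' protocols. Trimmomatic, Subread, featureCounts and the build GRCm39 (mm39) are named in the submitters' processing notes. Versions, annotation, strand and multi-mapping settings were found in no source used here. The authors deposited 1 table of a scaled signal per gene and library, called CPM in its name, with column totals of 990244 to 1025489. Each value of a column (100%) was a whole multiple of its smallest value, within 0.01 of a whole number, which gave back read counts. Its columns are named control and kpn with a number, and control was taken to mean wild type.

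limma 3.58.1 (R 4.3.3) was run on log2(CPM + 0.5) with its variance trend, over 22027 genes averaging 0.5 CPM or more in 8 libraries, with Benjamini-Hochberg adjustment and no covariate. The plan had taken the unit as plain CPM, and its test was kept. Tested on counts simulated for 21997 genes, limma found 85.1% of planted changes of 1.5-fold and 100% of those of 2-fold and of 4-fold, with 6.40% of calls false. Changes were planted only in genes averaging at least 2 CPM, so recovery in lower genes such as Trim16 was not measured. None under 1.5-fold was planted, so recovery of changes as small as those of Trim37, Trim39, Trim23 and Trim26 was not measured either. The share of false calls is that of the simulated counts. The alternatives were 2 scalings, 2 pseudocounts, 2 filters, no trend, library weights, the replicate block, each library left out, edgeR 4.0.16 (3685 genes called on the recovered reads) and DESeq2 1.42.0. Symbols, exon lengths and coordinates (GRCm38, not converted) came from GENCODE M21, which matched 24890 identifiers. Libraries of a group differed beyond counting error (chi-square per degree of freedom 4.73 to 12). Trim genes were named if called, if their unadjusted p was under 0.05, or as the highest of a class or role list, and pathway genes if called (up to 4 a list) or highest. Trim5, Trim29, Trim30b, Trim50, Trim55, Trim69, Trim80 and Fbxw10 were named after their values were seen. The members and lists were chosen with earlier results of these data known.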

Additional observations from a re-analysis of the deposited data

Results flagged for a closer look

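Of 34 groups of 4 libraries, taken over 17 named Trim genes, 2 held a library that stood apart from the other 3 by Dixon's ratio at the 95% level, which chance gives in about 5% of groups. Trim42 had 47.3 CPM in knockout replicate 2, where the nearest other library of that label had 54.6 CPM. Trim59 had 34.7 CPM in knockout replicate 3, where the nearest had 39.1 CPM.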

How the results depend on the processing

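Over 19 alternatives 1448 to 2113 genes were called higher and 1343 to 2020 lower. Without a variance trend 1 Trim gene was higher, and with 1 library left out 1 to 5 were higher and 2 to 3 lower. Quantile normalization left 2 pathway genes lower, and leaving out 1 library gave 2 to 4. Trim37, Trim23 and Trim26 were called in 19 of 19 alternatives, Trim39 in 14 of 19 and Trim16 in 15 of 18, since a filter at 2 CPM removed it. The sign of the uncalled Trim28 and Trim32 turned when 1 library was left out, with log2 fold changes of -0.0901 to 0.0060 and of -0.0269 to 0.0295. The cause of these changes was not tested. Same-numbered libraries did not deviate together (correlations of -0.031 to 0.039, and none correlated best with its own number), so the numbers were not taken as pairs. With the replicate block 1768 genes were higher and 1678 lower, with 2 and 3 Trim genes among them. With 4 to 30 reads of Trim16 in a library, depth limits the lowest genes.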

Other observations

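Genes within 500 kb of the called Trim genes were called in both directions, and their counts are to be read against the 16.9% of all tested genes that were called, 8.62% higher and 8.32% lower. Around Trim37, 1 of 19 tested neighbours rose and 3 fell. The one that rose was Gm11491, whose start lies at -0.119 kb from that of Trim37, and which went from 0.886 ± 0.296 to 1.54 ± 0.299 CPM (limma adjusted p = 0.038). Ppm1e, a protein phosphatase gene, fell from 14.9 ± 1.55 to 11.6 ± 0.186 CPM (limma adjusted p = 0.012).

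Around Trim23, 2 of 9 neighbours fell and none rose, and Sgtb, a cochaperone gene, fell from 7.01 ± 0.592 to 3.32 ± 0.191 CPM (limma adjusted p = 1.6e-05). Around Trim26, 4 of 15 rose and 1 fell, which was Gabbr1, a GABA receptor gene, from 29.3 ± 0.385 to 22.7 ± 1.94 CPM (limma adjusted p = 0.0021). Among those that rose, Olfr93 averaged 0.329 CPM in the wild type and 0.707 CPM under the knockout label. It reached the 0.5 CPM filter only through the knockout-labelled libraries, so its call is a description. Around Trim39, 3 of 25 rose and 1 fell, and Atat1, which acetylates tubulin, rose from 50.9 ± 1.22 to 63.2 ± 3.35 CPM (limma adjusted p = 0.0012). Around Trim16, 1 of 24 rose, which was Zfp286, from 18.2 ± 1.899 to 23.3 ± 1.25 CPM (limma adjusted p = 0.0072), and 1 fell. The neighbours named here were chosen after their values were seen.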
